A study of Mus musculus with 2 samples.

Results

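Nnt encodes nicotinamide nucleotide transhydrogenase. The gene annotation used for the deposited tables enters it as 2 separate gene records, and both were taken, with all 6 of their transcripts, out of 55450 gene records and 141767 transcripts. The gene was chosen by its measured values: one of its records was listed at 0 in 1 library and at 5.69 TPM, a length-normalised relative abundance, in the other. The values that chose it are therefore given as a description, with no test. Total RNA was sequenced from adrenal gland of 36 day old female B6CASTF1/J mice, which carried no listed treatment and form a single group of 2 libraries, labelled biological replicates 1 and 2. There is no other genotype, sex, age or treatment to compare with. The labels of both libraries carry the same donor identifier, and the 2 labels of the second library name different animals, so the spread between replicates may be that of libraries rather than of mice.

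The transhydrogenase sits in the inner mitochondrial membrane and uses the proton gradient to pass hydride from NADH to NADP, which supplies NADPH inside the mitochondrion. That NADPH feeds the glutathione and thioredoxin systems that remove peroxide, and in the adrenal cortex the mitochondrial steroid hydroxylases also draw on it. Loss of NNT in humans is known as a cause of familial glucocorticoid deficiency. C57BL/6J mice are known for a Nnt allele that lacks a block of internal exons, and B6CASTF1/J is a first-generation hybrid of C57BL/6J with the CAST/EiJ strain. The mouse reference genome was built from C57BL/6J, so exons absent from that strain are also absent from an annotation of it. They were not measured here, and the tables do not separate the transcripts of the parental chromosomes.

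Both records lie on the minus strand of chromosome 13 in mm10 (GENCODE M21 annotation). The larger, ENSMUSG00000025453.18, covers chr13:119335448-119408997 (73550 bases) and holds 5 transcripts, Nnt-201 to Nnt-205. The lesser, ENSMUSG00000116207.1, covers chr13:119335528-119408952 (73425 bases) and holds Nnt-206 alone. It lies wholly inside the larger one, and no gene with another symbol is annotated in that span. RefSeq's table of the same assembly has 1 Nnt record. Nnt-202 has 17 exons, 3464 bases and an open reading frame of 835 codons. Nnt-206 also has 17 exons and 835 codons, with 15 of its exons identical to those of Nnt-202. It differs only in being 45 bases shorter at the 5′ end and 80 bases shorter at the 3′ end, so that all of its 3339 bases are in Nnt-202. Nnt-201 has 15 exons and 3122 bases. It lacks exons 8 and 9 of Nnt-202, which together hold 342 coding bases or 114 whole codons, so the frame is kept in its 721 codons. Nnt-203 follows Nnt-202 through its first exons and ends in a longer 14th exon. Nnt-204 and Nnt-205 are short models annotated as retained introns, with 5 and 4 exons.

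**Figure D1:**
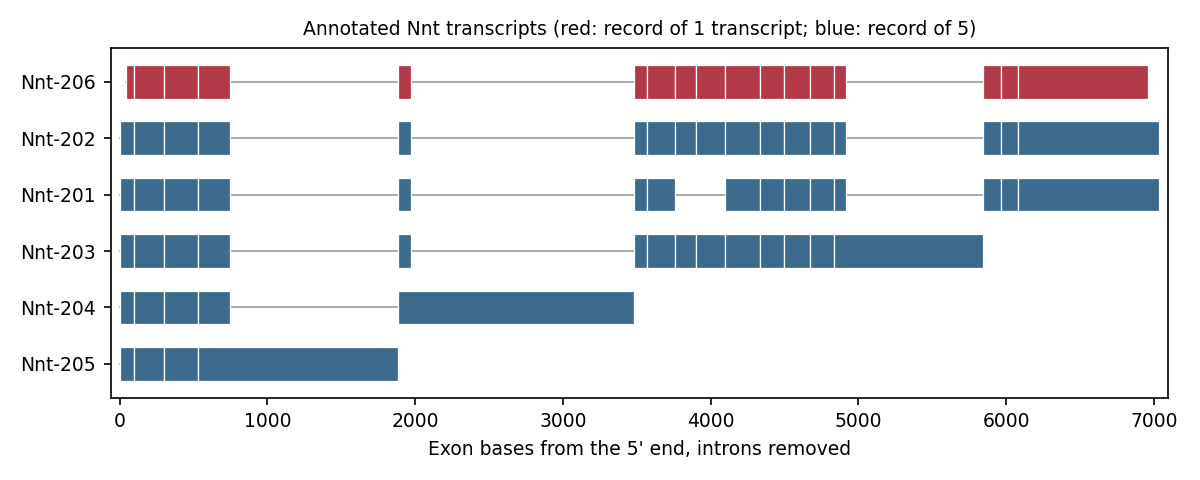
Exons of the 6 annotated Nnt transcripts along the exon bases of the gene counted from the 5′ end with introns removed, 1 row per transcript, with boxes for exons. Nnt-206 repeats Nnt-202 with slightly shorter ends, and Nnt-201 lacks the adjoining exons 8 and 9.

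The sequences below are those by which the main transcripts can be told apart. Exon 8 is chr13:119374629-119374774 and exon 9 is chr13:119372396-119372591, both wholly coding and both present in Nnt-202, Nnt-203 and Nnt-206. They lie between exon 7 at chr13:119381676-119381863 and exon 10 at chr13:119369912-119370145. Each junction is given as 25 bases of the upstream exon in lower case and 25 bases of the downstream exon in capitals, 5′ to 3′ on the transcribed minus strand, from the GENCODE M21 transcripts. The joins of exons 7 and 8 and of exons 9 and 10 occur in Nnt-202, Nnt-203 and Nnt-206, while the join of exons 7 and 10 occurs in Nnt-201 alone.
Nnt exon 8: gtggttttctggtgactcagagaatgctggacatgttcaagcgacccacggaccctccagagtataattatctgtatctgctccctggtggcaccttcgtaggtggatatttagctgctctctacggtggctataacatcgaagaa
Nnt exon 9: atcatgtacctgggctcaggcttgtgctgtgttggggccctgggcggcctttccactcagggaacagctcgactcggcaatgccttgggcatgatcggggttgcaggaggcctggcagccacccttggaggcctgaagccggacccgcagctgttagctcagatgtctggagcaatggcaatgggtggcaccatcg
Nnt junction of exons 7 and 8: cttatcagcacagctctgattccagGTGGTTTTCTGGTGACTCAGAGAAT
Nnt junction of exons 9 and 10: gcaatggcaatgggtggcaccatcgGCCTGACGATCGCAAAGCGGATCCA
Nnt junction of exons 7 and 10: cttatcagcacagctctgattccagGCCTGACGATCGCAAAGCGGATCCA
No such line can be drawn for Nnt-206. Of its 3240 windows of 100 bases, 0 were absent from every other annotated transcript, and all were in Nnt-202. In the other direction, 125 of the 3365 windows of Nnt-202 were absent from Nnt-206, and every one of those was in another Nnt transcript. Nnt-201 had 97 windows of its own out of 3023, which are those across its exon 7 to 10 join. Lack of any own window was shared by 15390 of 139316 annotated transcripts (11.0%). Lying wholly inside a transcript of another gene record was rarer, at 2673 of the 139316 (1.92%), and at 0.283% of the 72838 transcripts of genes with 200 or more summed counts.

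The libraries held 35684781 and 38701795 expected counts in replicates 1 and 2. All 7 adrenal cortex markers and all 5 medulla markers were at 1 TPM or more in both, with summed TPM of 16361 and 16834 for cortex and 1480 and 1110 for medulla. Skeletal muscle markers, 4 in all, summed to 213 TPM in replicate 1 and 1.49 in replicate 2, and the 2 liver markers to 26.5 and 1.45. Of the 4 adipocyte markers, all were detected (1608 and 1579), and of the 3 kidney markers 0 reached 1 TPM in both. These muscle and liver markers were higher in replicate 1, the library in which the lesser Nnt record was listed at 0, and their part in its value was not tested. In bulk tissue, fewer cells of a type and less RNA per cell cannot be told apart.

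In the gene tables the larger record was at 38.72 TPM (replicate 1) and 34.31 TPM (replicate 2). The lesser record was at 0 and 5.69 TPM, in the same order. What the larger record lost from one library to the other was close to what the lesser one gained, and the sum over both was 38.72 TPM and 40.00 TPM, or 39.4 ± 0.905 TPM (SD, n = 2). The summed expected count, a read count in which shared reads are split by a model, was 4435 in replicate 1 and 4890 in replicate 2. These sums are whole numbers although the counts of the records are not (4434.93 and 0.07 in replicate 1, 4177.4 and 712.6 in replicate 2), so in each library the fractions were divided between the 2 Nnt records.

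The tables also give the uncertainty of assigning a read to one record or the other. The deposited posterior mean count of the lesser record was 273.09 in replicate 1 and 926.28 in replicate 2. Its posterior SD was 205.05 and 451.89, and the larger record had exactly the same SD in each library. The deposited bounds of the lesser record's TPM ran from 0.000117 to 5.71 in replicate 1 and from 0.427 to 14.1 in replicate 2. These ranges overlapped across most of the first one, and those of the larger record, 32.2 to 38.8 and 25.3 to 38.9, overlapped as well. The listed 0 of replicate 1 therefore lies beside a posterior mean of 2.30 TPM, and the 5.69 of replicate 2 beside one of 7.27 TPM. The deposited coefficient of quartile variation, a spread relative to the level, was 0.518 and 0.356 for the lesser record. Genes at a posterior mean of 1 TPM or more numbered 15954 in replicate 1 and 15806 in replicate 2. Of these, 84.96% and 84.65% had a lower coefficient than the lesser record. For the larger record the coefficient was 0.0302 and 0.0725, near the medians of the same genes, 0.0468 and 0.0442.

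**Figure D2:**
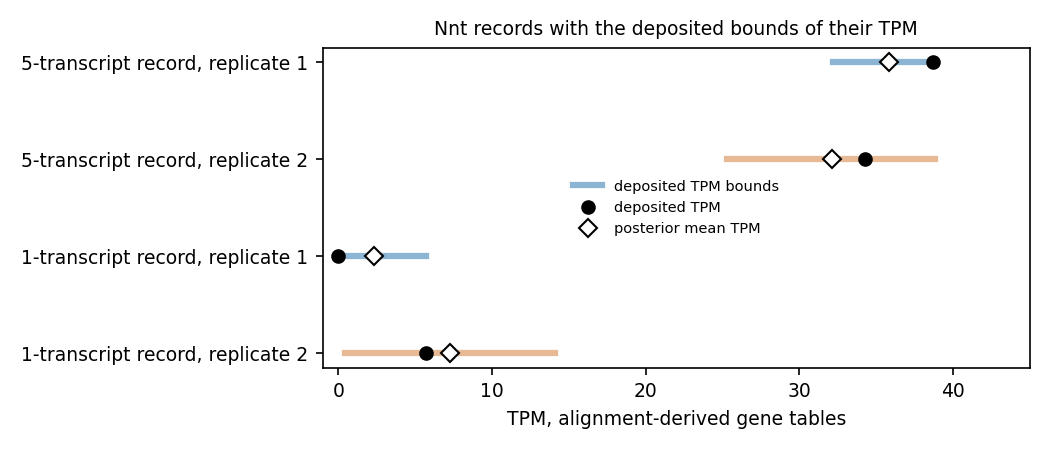
Deposited TPM (filled circles), posterior mean TPM (diamonds) and deposited TPM bounds (bars) of both Nnt records in each library, on a linear TPM axis, with blue for replicate 1 and orange for replicate 2. The bounds of the lesser record, 0.000117 to 5.71 and 0.427 to 14.1, overlap between the libraries.

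The second deposited quantification, made from the reads and an index, divided the gene the other way round. Here the lesser record was the higher one, at 45.58 and 42.58 TPM. The larger record was at 18.21 and 21.85 TPM. The lesser record thus held 71.4% and 66.1% of Nnt TPM in the read-derived tables, against 0% and 14.2% in the gene tables. The shift from replicate 1 to replicate 2 was 14.2 percentage points in the gene tables and -5.36 points in the read-derived ones. The gap between tables was larger than the spread between libraries: 68.8 ± 3.79% against 7.11 ± 10.1% (SD, n = 2 each). In counts, 713 of 4890 Nnt reads (14.6%, exact 95% interval 13.6 to 15.6) fell to the lesser record in replicate 2 of the gene tables. In replicate 1 it was 0 of 4435, with an exact 95% upper limit of 0.0831%. Counts were rounded for these limits, which cover counting error alone and not the assignment of reads: the share by posterior mean TPM was 6.03% in replicate 1 and 18.4% in replicate 2.

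The log2 ratio of replicate 2 over replicate 1, on TPM + 0.1, was 0.05 for the summed gene, -0.17 for the larger record and 5.86 for the lesser. The last value depends on the pseudocount, since one side is listed at 0. With posterior mean TPM in its place it was 1.62. From the read-derived tables the ratios were 0.01, 0.26 and -0.10, so both records turned in direction and only the sum stayed next to 0. Of 12275 genes with 200 or more summed counts, 111 (0.904%) were 2-fold or more apart between the libraries. The lesser Nnt record was one of them, the larger was not, and the rule that chose the gene used this contrast. For 24 of those 111 genes (21.6%), the lesser Nnt record included, the deposited TPM bounds of the libraries overlapped.

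Most of the exchange in the alignment-derived transcript tables was between Nnt-202 and Nnt-206. Nnt-206 was at 0 and 5.69 TPM, as the sole transcript of the lesser record. Nnt-202, the 17-exon transcript of the larger record, was at 18.74 and 13.91 TPM. Their sum was 18.74 and 19.60 TPM (19.2 ± 0.608), so that taken as 1 molecule the libraries differed by a log2 ratio of 0.06. Nnt-201, without exons 8 and 9, was at 19.10 and 19.23 TPM. In these tables, transcripts with and without exons 8 and 9 were thus at like levels: Nnt-201 held 48.7 ± 0.877% of Nnt TPM, and Nnt-202 with Nnt-206 held 48.7 ± 0.434%.

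In the read-derived tables Nnt-206 was the leading transcript, at 45.58 and 42.58 TPM. Nnt-202 was at 9.76 and 15.47 TPM, and the sum of the pair was 55.3 and 58.0 TPM (56.7 ± 1.92), a log2 ratio of 0.07. Nnt-201 was at 6.94 and 4.50 TPM, or 8.93 ± 2.75% of Nnt TPM, with 495 and 342 estimated counts against 2081.94 and 2248.79 expected counts in the alignment-derived tables. Summing the near-identical pair thus brought the libraries close in both tables but left a difference between tables in the share of Nnt-201, 48.7% against 8.93%, which exceeded the spread between libraries in either. For Nnt-201 the 97 own windows of 100 bases, 3.21% of its windows, make the transcript distinguishable in principle. At a window of 31 bases, 28 of its 3092 were its own. Why the tables differ was not tested.

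The minor transcripts were low in both tables. Nnt-203, which shares exons 8 and 9 but ends early, was at 0.41 and 0.67 TPM by alignment and 0.609 and 1.05 TPM from reads, higher in replicate 2 both times. Its deposited bounds, 0.237 to 0.649 and 0.438 to 0.955, overlapped. The retained-intron models Nnt-204 and Nnt-205 together made up 1.24% of Nnt TPM in replicate 1 and 1.25% in replicate 2 by alignment, and 1.43% and 1.29% from reads. These 3 have many windows of their own, 925 for Nnt-203, 1506 for Nnt-204 and 1139 for Nnt-205. Nnt-204 was listed at 0.12 and 0.13 TPM by alignment, on only 9.54 and 11.31 expected counts. From reads it was at 0.433 and 0.326 TPM, on 22.2 and 17.8 estimated counts. Read-derived TPM was higher for genes in general, with a median log2 ratio of 0.70. The deposited TPM bounds of the libraries overlapped for all 6 transcripts.

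**Figure D3:**
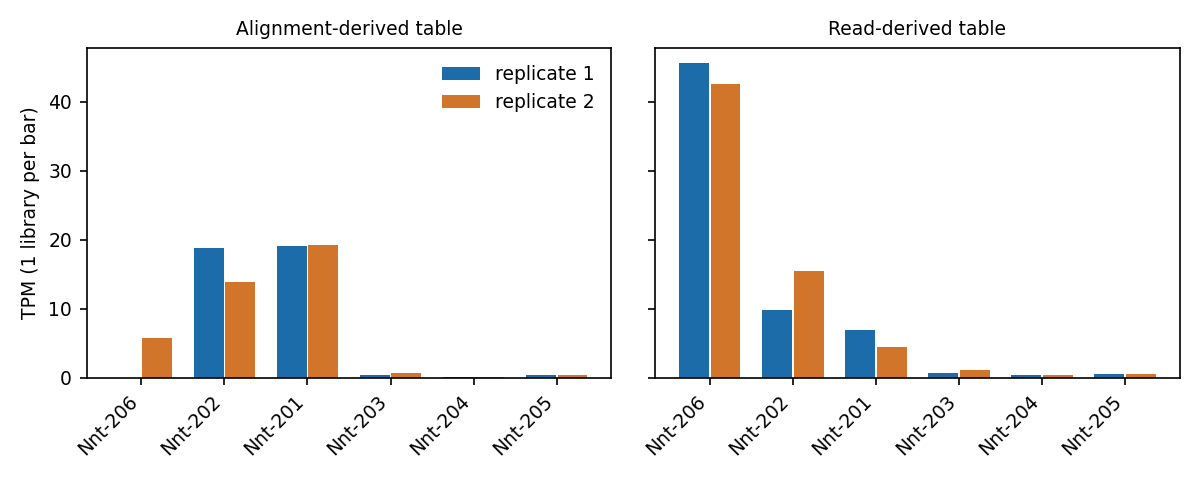
TPM of the 6 Nnt transcripts in the alignment-derived tables (left) and the read-derived tables (right), 1 bar per library. Nnt-206 is at 0 and 5.69 TPM on the left and at 45.58 and 42.58 TPM on the right.

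The percentage of a gene record's TPM that a transcript takes (IsoPct) does not show this exchange. For Nnt-206 it is 100 in both libraries, including the one where its TPM is 0, since no other transcript shares its record. For Nnt-202 it was 48.39 and 40.54, and for Nnt-201 49.31 and 56.04, although the TPM of Nnt-201 moved by a log2 ratio of only 0.01. Of 71415 transcripts in genes with 2 or more transcripts and 200 or more summed counts, 1560 (2.18%) were at an IsoPct of 10 or more in 1 library and 0 in the other. None of the 5 Nnt transcripts so counted was among them. With records of 1 symbol pooled, 1606 of 71452 transcripts (2.25%) were called and Nnt-206 was one. Without pooling, calls were made for 3.02% of the 7885 transcripts with no own window of 100 bases and 2.08% of the 63530 with at least 1.

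The percentage of TPM that would have to move to turn one set of Nnt transcript shares into another puts both differences on 1 scale. Between the libraries it was 14.9% in the alignment-derived tables, where 73.8% of symbols had less and the median was 8.36%. It was 9.43% in the read-derived tables, where 51.5% of symbols had less and the median was 9.14%. Between the tables it was 71.8% in replicate 1 and 52.0% in replicate 2, against medians of 20.3% and 20.4%, and 96.4% and 90.5% of symbols had less. For Nnt the values between tables were larger than those between libraries, and so were the medians of all symbols. The rule that chose the gene compared the libraries and the tables for these transcripts, so nothing is read from its place among symbols.

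Other symbols with 2 or more records give the background for the exchange. Of 29 such symbols with 200 or more summed counts, 5 (17.2%) had a lesser record whose share moved by 10 percentage points or more in the gene tables, and Nnt had the third largest move. The rule used this contrast, so nothing is read from its place. The 29 symbols include Rnu3b1, Rnu3b2, Rnu3b3 and Rnu3b4, whose values were identical from symbol to symbol. The 29 are therefore not all separate cases. The other 4 called symbols are given next, whatever the size of their move. Rnu3a, a small nucleolar RNA, moved from 16.3% to 81.8% while its sum was 295 and 290 TPM. Arhgef4, a guanine nucleotide exchange factor, moved from 0% to 17.2%. Its sum was 2.17 and 3.37 TPM, with both records higher in replicate 2. Zc3h11a, a zinc finger protein, moved from 42.5% to 31.5%, with a sum of 27.12 and 26.06 TPM. The uncharacterised 1700030C10Rik moved from 26.0% to 15.1%. Its sum was 2.27 and 1.86 TPM, with both records lower in replicate 2. The lesser records of Rnu3a, Arhgef4 and Zc3h11a had 0 own windows of 100 bases, like that of Nnt, while that of 1700030C10Rik had 1089. Among symbols that were not called, the lesser records of Gm6740, Sept2, Ddit3 and the identically valued Rnu3b1, Rnu3b2, Rnu3b3 and Rnu3b4 also had 0. The other uncalled ones had own windows. The share of Sept2 was 30.6% and 34.2%. Whether lack of own windows goes with a larger move was not tested. In the read-derived tables the share was 0% in both libraries for Arhgef4, 21.7% and 17.8% for Zc3h11a, and 27.3% and 14.3% for 1700030C10Rik.

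**Figure D4:**
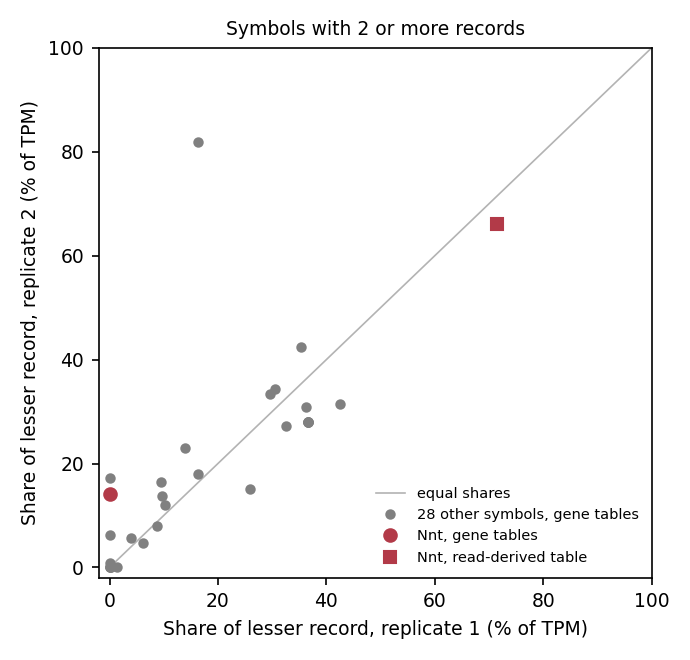
Share of the lesser record in the TPM of its symbol in replicate 1 (horizontal axis, %) and replicate 2 (vertical axis, %), 1 grey circle for each of 28 symbols other than Nnt, with the line of equal shares. Nnt in red lies at 0% and 14.2% in the gene tables (circle) and at 71.4% and 66.1% in the read-derived table (square). Rnu3b1, Rnu3b2, Rnu3b3 and Rnu3b4 have identical values, so their circles coincide.

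Summed over its records, Nnt was at 63.79 and 64.43 TPM in the read-derived tables (64.1 ± 0.448), a higher TPM than the 39.4 of the gene tables. The log2 ratio of the tables, on TPM + 1, was 0.69, and the median of all detected genes was 0.70 with quartiles of 0.54 and 0.89, so the summed gene stood where genes in general did. Nuclear protein-coding genes held 31.2% of TPM in replicate 1 of the gene tables and 59.2% of TPM in the read-derived ones. Rescaled to those genes alone, summed Nnt was at 126 ± 2.74 TPM and 108 ± 0.801 TPM, a log2 ratio of -0.22 where the median was -0.10 with quartiles of -0.22 and 0.11. On that scale 25.1% of 17088 symbols had a lower ratio than Nnt, against 48.3% of 14948 before rescaling, so the sets of symbols also differ. By level, summed Nnt ranked 1697th of 12726 detected symbols in the gene tables. In both kinds of table, symbols below it made up 86.7%.

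Among the 9 genes put on a list for mitochondrial NADPH supply, summed Nnt had the third highest TPM. The list was drawn up by hand, and what each enzyme adds to NADPH was not measured. Glud1, glutamate dehydrogenase, was above it at 62.7 ± 0.170 TPM (62.85 and 62.61), and Idh2, the mitochondrial NADP-dependent isocitrate dehydrogenase, was next at 44.3 ± 1.05 (43.51 and 44.99). The values of Nnt and Idh2 did not overlap, with the lowest of Idh2 above the 40.00 of Nnt. Nadk2, the mitochondrial NAD kinase that makes NADP, followed at 22.8 ± 1.91. The folate enzymes Mthfd2 (11.5 ± 1.15), Mthfd2l and Aldh1l2 and the malic enzymes Me2 and Me3 were lower, down to 0.52 and 0.27 TPM for Aldh1l2. In the cytosol, the NADP-dependent malic enzyme Me1 was at 467 ± 46.0 TPM and the pentose phosphate enzyme G6pdx at 54.2 ± 2.70. The same libraries held adipocyte markers at a summed 1608 and 1579 TPM, and the part of fat cells in these levels was not tested.

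Among the users of mitochondrial NADPH and their partners, all listed genes but Glrx2, Gsr and Txnrd2 had a higher TPM than summed Nnt. Peroxide defence genes had a median of 141 TPM, with the mitochondrial peroxiredoxin Prdx3 at 271 TPM, while glutathione reductase Gsr was at 27.1 and the mitochondrial thioredoxin reductase Txnrd2 at 28.6 ± 1.33. In the steroid hydroxylase chain, Cyp11b2, the aldosterone synthase, was at 66.3 ± 3.27 TPM and the others were much higher, with the ferredoxin Fdx1 at 652 ± 6.25 TPM, its reductase Fdxr at 373 ± 25.6 and the side-chain cleavage enzyme Cyp11a1 at 2095 ± 121. Of the listed genes, those nearest summed Nnt in level were Idh2, Glrx2, Aldh1l1, Txnrd2 and G6pdx. Over all 30 genes of the 4 lists, 0 were 2-fold apart between the libraries on TPM + 0.1, 14 were higher and 16 lower in replicate 2. Their median log2 ratio was -0.01, beside 0.04 for all 12726 detected symbols, of which 110 were 2-fold apart. Of all 12726, 7400 were higher and 5279 lower in replicate 2. The lists were read with Nnt summed over its records, which also sums RNA from either parental chromosome. These are RNA levels, and the working enzyme behind them was not measured.

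**Figure D5:**
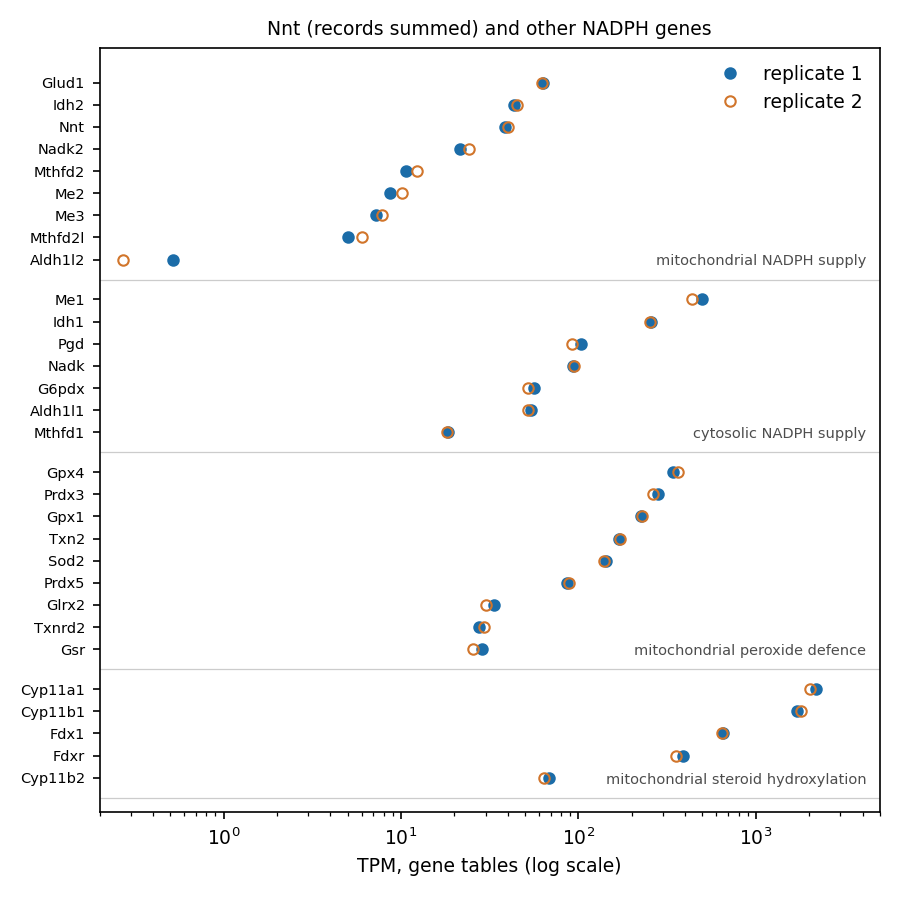
TPM of summed Nnt and the other genes of the 4 NADPH lists in the gene tables on a log axis, with a filled circle for replicate 1 and an open circle for replicate 2. Summed Nnt, at 38.72 and 40.00 TPM, is below only 2 genes on the mitochondrial supply list, Glud1 and Idh2.

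None of the protein-coding genes within 500 kb of Nnt on chromosome 13 overlaps it. The nearest, Paip1, which encodes a poly(A)-binding protein partner, begins 19.6 kb away and was at 44.13 and 44.06 TPM. Hmgcs1, a cholesterol synthesis enzyme, was the neighbour that differed most among those above 1 TPM, at 171.71 and 110.27 TPM, a log2 ratio of -0.64, while summed Nnt was at 0.05.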

How the data were processed

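Total RNA libraries from 2 adrenal gland samples, made from 300 ng of RNA per the labels, were analysed as 1 group. Per the labels, the assembly was mm10, and per the file headers the annotation was GENCODE M21. The authors deposited gene and transcript tables derived from transcriptome alignments, with expected counts (shared reads split by a model), TPM and the IsoPct percent. The same deposited tables hold posterior SDs and TPM bounds, treated as signal values, and a coefficient of quartile variation, treated as a score. The authors also deposited a read-derived table of estimated counts and TPM. The sources used here do not name the aligner, versions or strand setting. Depth was 35684781 and 38701795 expected counts.

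Records with the symbol Nnt were summed per library. With 1 library per side no p-value was computed. Ratios used TPM + 0.1 between libraries and TPM + 1 between tables. Genes compared had 200 or more summed counts, and detection meant 1 TPM. An own window is a stretch of 100 bases, or of 31 where stated, found in no other annotated transcript. Clopper-Pearson limits of shares are at 95%. Expected counts were rounded for those limits and for edgeR 4.0.16 (TMM) and DESeq2 1.42.0 size factors, tried as scalings. Other steps used Python 3.11.15, pandas 2.3.3 and scipy 1.17.1, and the counting steps were tested on simulated data. Named genes were all Nnt records and transcripts, the NADPH lists, neighbours within 500 kb, the 5 symbols with the largest share shift and the tissue markers. The members and lists were chosen with earlier results of these data known. Alternatives were another quantification, scaling, pseudocount, count minimum, threshold and each library alone.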

Additional observations from a re-analysis of the deposited data

How the results depend on the processing

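Across the alternatives, 41 values stayed within their error or within 1.5 times a count, 19 moved further and 6 changed sign. The 41 include 4 of the lesser record's log2 ratio that differ widely from the 5.86 on TPM + 0.1, because its counting interval has no upper end where one count is 0. Also among the 41 are the lesser record's level at 0 and 5.69 TPM, beside a mean of 2.85. Its share at 0%, 14.2% and 12.2%, beside a mean of 7.11%, is among them too. The SDs between libraries, 4.02 TPM and 10.1%, exceed those means, so these values are not shown to be stable. With the read-derived table, the summed level was 64.1 TPM, the larger record 20.03, the lesser record 44.1 and the lesser record's mean share 68.8%, while the shift of that share turned to -5.36 percentage points and the log2 ratios of the larger and lesser records turned to 0.26 and -0.10. Rescaled to nuclear protein-coding genes, the 3 levels were 126, 117 and 9.11 TPM, and the log2 ratio between tables turned to -0.22. With posterior mean TPM, an alternative chosen after seeing the data, the share shift was 12.4 points and the lesser record's log2 ratio 1.62. That ratio was 2.74 with a pseudocount of 1 TPM, 9.15 with 0.01 TPM, 7.52 on protein-coding TPM and 10.1 by TMM-scaled counts. The summed gene's log2 ratio turned to -0.0016 with TMM and -0.00066 with DESeq2 size factors. Symbols whose lesser record moved numbered 11 with no count minimum, 8 with 50 counts and 1 at 20 points. Transcripts at 0 in 1 library only numbered 7125 with no minimum, 2957 with 50 counts and 3415 at an IsoPct of 5. Genes 2-fold apart numbered 1907 with no minimum, 298 with 50 counts and 73 with a pseudocount of 1 TPM. Taking 1 library alone, the lesser record was at 0 or 5.69 TPM, so its mean of 2.85 TPM rests on replicate 2. No paired analysis was possible because there is 1 group. With 2 libraries, no test of any difference between them was possible. The lesser record had 0 own windows, and whether this bears on how reads were divided between the records was not tested.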
